A study of Mus musculus with 9 samples.

Results

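The small leucine-rich proteoglycans (SLRPs) considered here were Dcn, Bgn, Lum, Fmod, Ogn, Prelp, Aspn, Omd, Podn and Ecm2. They were taken by gene symbol, and all 10 were found among the 21873 genes of the liver mRNA table. All 10 also passed the filter on low values that left 14094 genes for testing, Aspn only through its values in the TAA group. The 9 libraries came from male C57BL/6 mice that were 8 weeks old at the start, with 3 mice in each group. The control group received saline and the TAA group thioacetamide, a hepatotoxin, both by intraperitoneal injection for 8 weeks, and their livers were taken 3 days after the final injection. The recovery group had the same 8 weeks of thioacetamide and then 8 weeks without injections, so these mice were older than the others when killed, and controls of matching age were not analysed here.

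SLRPs are secreted proteins built around a curved stack of leucine-rich repeats. Most carry glycosaminoglycan chains, and several bind collagen fibrils and limit their thickness. In the liver they are made mainly by stellate cells and fibroblasts of the portal tract and capsule. Class I holds decorin (Dcn), biglycan (Bgn) and asporin (Aspn). Lumican (Lum), fibromodulin (Fmod), Prelp and osteomodulin (Omd) belong to class II, osteoglycin (Ogn) to class III and podocan (Podn) to class V, whereas Ecm2 is a related matrix protein. Decorin and biglycan also bind TGF-beta, and soluble biglycan is a ligand of the receptors Tlr2 and Tlr4.

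Levels are given as FPKM (fragments per kilobase of exon per M mapped fragments) divided by 1 median-of-ratios factor per library, named scaled FPKM below. Libraries held an estimated 26.8 to 40.7 M fragments. The factors were 0.827 to 0.907 in the control and recovery groups and 1.29 to 1.38 in the TAA group, a shift of 0.64 on the log2 scale between the TAA and control groups, and every fold change below is relative to it. All hepatocyte markers checked (8 of 8) were detected in all groups, with Alb at 17378 to 36663 scaled FPKM. A pair of libraries stood apart. TAA 3 held skeletal muscle mRNA (summed scaled FPKM of 8 markers 38.8, against at most 0.0846 in any other library) and the highest level of the mesothelial gene Msln (1.41, against at most 0.594). Control 1 had the lowest depth, a low level of the Kupffer cell gene Cd5l (13.6, against 50.5 and 51.2 in the other controls) and a high level of Gpnmb (22.2, against 0.188 and 0.102). Results that rest on either library are given without it, except for Aspn, which did not pass the filter on low values without TAA 3.

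The 250 bases before the start of the gene are shown for 3 members that moved in different ways: Bgn and Fmod, which were higher in the TAA group, and Omd, which was lower. RefSeq windows (GRCm38.p6) were at hand for 8 of the 10 members, Dcn and Lum not among them. Matches on either strand are in capitals for 4 motifs: the TATA box TATAAA, the AP-1 motif TGANTCA, the SMAD motif CAGACA and the GC box GGGCGG. All 3 sequences run 5′ to 3′ on the plus strand, at chrX:73483351-73483600 (Bgn), chr1:134037004-134037253 (Fmod) and chr13:49582212-49582461 (Omd).
Bgn: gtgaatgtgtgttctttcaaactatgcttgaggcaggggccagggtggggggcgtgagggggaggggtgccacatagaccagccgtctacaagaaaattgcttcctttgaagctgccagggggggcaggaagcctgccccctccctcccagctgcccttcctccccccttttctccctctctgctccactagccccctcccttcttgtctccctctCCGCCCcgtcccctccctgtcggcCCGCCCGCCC
Fmod: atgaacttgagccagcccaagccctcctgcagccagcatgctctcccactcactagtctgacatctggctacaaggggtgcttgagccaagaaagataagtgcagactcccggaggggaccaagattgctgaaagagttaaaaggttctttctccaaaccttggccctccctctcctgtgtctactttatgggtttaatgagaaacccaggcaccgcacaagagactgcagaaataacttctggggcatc
Omd: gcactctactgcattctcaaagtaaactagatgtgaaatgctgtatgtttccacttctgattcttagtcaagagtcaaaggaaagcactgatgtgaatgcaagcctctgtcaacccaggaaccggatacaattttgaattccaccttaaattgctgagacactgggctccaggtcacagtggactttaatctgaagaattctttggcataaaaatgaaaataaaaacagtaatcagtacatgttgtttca
The Bgn window held 3 matches to GGGCGG, which begin 34, 10 and 6 bases before the start, and the last pair share 2 bases. This motif was in 32.7% of all 32851 windows of the same length. The Fmod and Omd windows held no match to any of the 4 motifs, of which the TATA box was in 12.4%, the AP-1 motif in 6.75% and the SMAD motif in 17.1% of all windows. The GC content was 64.4% before Bgn, 51.2% before Fmod and 38.4% before Omd, beside a median of 52.4% over all windows.

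Relative to the control group, Lum, Bgn and Fmod were higher and Omd was lower in TAA-fibrotic mice at an FDR (adjusted p) < 0.05 and a fold change of at least 2. These were 3 of 10 members higher, where 17% of all tested genes were, and 1 of 10 lower, where 8.02% were. Prelp passed the FDR with a smaller change, which made 4 of 10 higher at any fold, where 28.2% of all tested genes were. In 5 of 10 members all TAA mice were above all control mice and in 1 below, where 32.6% and 31% of all tested genes were. Dcn, Ogn, Aspn, Podn and Ecm2 did not pass. Lum, Bgn and Omd remained called without TAA 3 and without control 1, and Fmod did not. The median log2 fold change was 0.67 over the members and 0.02 over all tested genes. Liver pieces were sequenced whole, so more cells of a type and more mRNA per cell cannot be told apart.

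**Figure D1:**
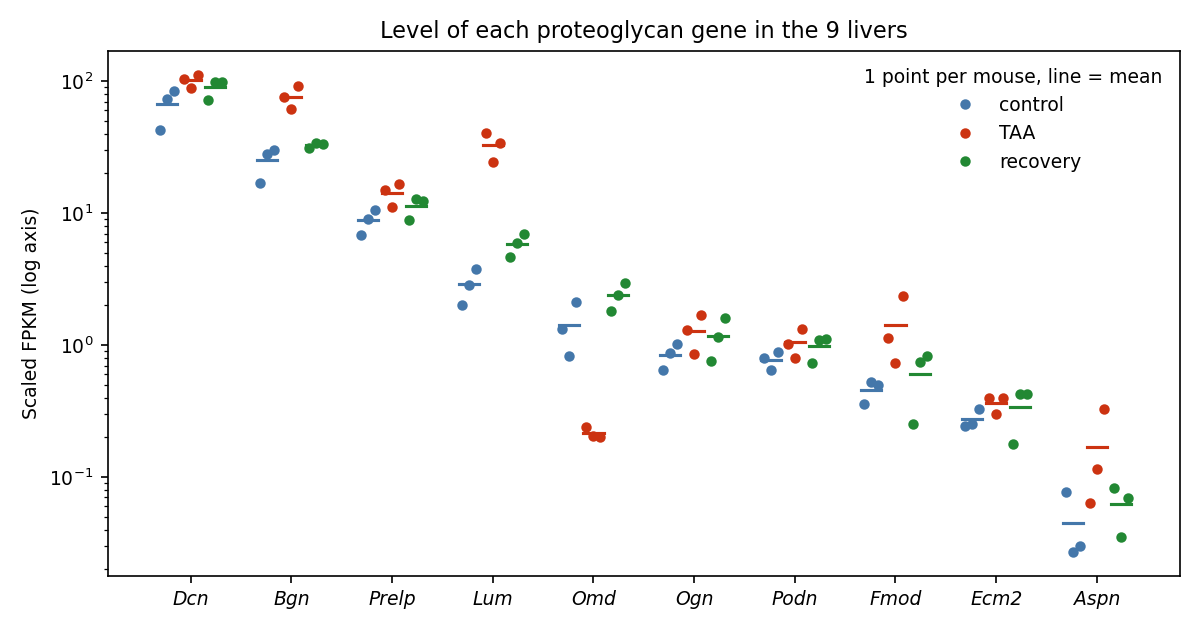
Scaled FPKM (log axis) of the 10 proteoglycan genes in each of the 9 livers, 1 point per mouse with the group mean as a line. Lum spans 2.03 to 3.76 in control and 24.3 to 40.8 in TAA mice, Omd moves the opposite way, and Dcn is the highest gene in every liver.

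Lumican, which binds collagen fibrils and is best known for the transparency of the cornea, showed the largest rise among the members. Lum (ENSMUSG00000036446, chr10:97565128-97572703, mm10) had 2.03, 2.86 and 3.76 scaled FPKM in the control mice, 40.8, 24.3 and 34.1 in the TAA mice and 4.67, 5.98 and 6.92 in the recovery mice. Every TAA mouse was far above every other mouse, and every recovery mouse was above every control mouse. The log2 fold change from control to TAA was 3.49 (SE 0.26, adjusted p = 3.76e-05, limma) and that from TAA to recovery was -2.46 (SE 0.21, adjusted p = 7.56e-05, limma). The recovery mean was 17.7% of the TAA mean, whereas the control mean was 8.71% of it. Leaving out each mouse in turn kept the rise at 3.26 to 3.69.

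Biglycan, which has the same fold as decorin and like it binds collagen, was next to decorin in level. Bgn (ENSMUSG00000031375, chrX:73483602-73495933) had 17.0, 28.2 and 30.1 scaled FPKM in the control mice, 76.2, 61.4 and 91.9 in the TAA mice and 31.2, 33.9 and 33.7 in the recovery mice. The lowest TAA mouse had over 61 and no other mouse reached 34. The rise was 1.63 on the log2 scale (SE 0.24, adjusted p = 0.000915, limma), and from TAA to recovery the level fell by 1.20 (SE 0.14, adjusted p = 0.000358, limma). Tested against a change of 2-fold itself rather than 0, neither change passed (adjusted p = 0.124 and 0.710, limma treat).

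Fibromodulin shares a collagen binding site with lumican. Fmod (ENSMUSG00000041559, chr1:134037254-134048277) had 0.355, 0.530 and 0.497 scaled FPKM in the control mice, 1.13, 0.737 and 2.36 in the TAA mice and 0.252, 0.741 and 0.833 in the recovery mice. The TAA and control mice did not overlap, but 2 recovery mice were above TAA 2. The log2 fold change was 1.30 (SE 0.38, adjusted p = 0.0218, limma). It rested on single mice: it was 0.87, under 2-fold, without TAA 3, the library with muscle mRNA, and its adjusted p was 0.061 without control 1. From TAA to recovery the difference was -1.07 with an interval of -2.18 to 0.05 (adjusted p = 0.1004).

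Osteomodulin, which is best known from bone matrix, went the opposite way from the other called members. Omd (ENSMUSG00000048368, chr13:49582462-49592822) had 1.32, 0.826 and 2.13 scaled FPKM in the control mice, 0.241, 0.205 and 0.201 in the TAA mice and 1.82, 2.38 and 2.96 in the recovery mice. All TAA mice were below all others, at an estimated 28.4, 23.6 and 24.0 fragments each against 56.2 to 136.8 in the control group. The level fell by 2.18 on the log2 scale (SE 0.31, adjusted p = 0.000875, limma) and rose by 2.95 from TAA to recovery (SE 0.21, adjusted p = 3.36e-05, limma). With 1 in place of 0.1 added to each value, the fall was 0.96 and no longer reached 2-fold. The summed scaled FPKM of the hepatocyte markers, most of it Alb, moved with Omd. It was 41526 to 45861 in the control, 23348 to 30544 in the TAA and 51197 to 53478 in the recovery mice. Of these markers 4 of 8 were called lower and then 4 of 8 higher, where 8.02% and 7.12% of all tested genes were. Alb itself was not called in the TAA group (-0.48 on the log2 scale, adjusted p = 0.188, limma). The part of hepatocytes in the fall of Omd was not tested.

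Omd lies within Cenpp, on the strand opposite to it, as do Ogn, Aspn and Ecm2. Cenpp, a kinetochore gene, went the other way, from 0.256 to 0.309 scaled FPKM in the control mice to 1.07 to 1.30 in the TAA mice and back to 0.250 to 0.295. Annotated exons of Cenpp shared 7 bases with those of Aspn and 0 bases with those of the other 3 genes. Prelp shared 350 exonic bases (9.68% of its own) with an antisense gene, Gm15851. Whether reads were counted by strand is not given in the sources used here, so reads of Prelp and Gm15851 in these bases cannot be told apart.

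Decorin, which binds both collagen and TGF-beta, was the most abundant member in every mouse. Dcn (ENSMUSG00000019929, chr10:97479609-97518143) had 42.7, 73.7 and 84.8 scaled FPKM in the control mice, 103.6, 89.4 and 112.2 in the TAA mice and 72.4, 98.6 and 97.9 in the recovery mice. The lowest TAA mouse, at 89.4, was just above the highest control mouse, at 84.8, and the TAA and recovery mice overlapped. The log2 fold change in the TAA group was 0.65, with a 95% interval of 0.09 to 1.22 (adjusted p = 0.0531, limma), and a change of 2-fold lies inside that interval. From TAA to recovery it was -0.19 (interval -0.53 to 0.15). Without control 1, the library of lowest depth, the first of these values was 0.35.

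Prelp, which anchors basement membranes to the underlying tissue, had 6.88, 9.10 and 10.5 scaled FPKM in the control mice, 15.0, 11.2 and 16.5 in the TAA mice and 8.82, 12.8 and 12.4 in the recovery mice. The TAA and control mice did not overlap, and the log2 fold change was 0.69 (SE 0.19, adjusted p = 0.0186, limma), which is under 2-fold. From TAA to recovery it was -0.33 (interval -0.76 to 0.11), with overlapping mice.

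The remaining members were near or below 1 scaled FPKM, and none passed the FDR. Osteoglycin had 0.652 to 1.01 in the control mice, 0.856 to 1.70 in the TAA mice and 0.757 to 1.59 in the recovery mice, and the log2 fold change in the TAA group was 0.52 (interval -0.11 to 1.15). Podocan had 0.643 to 0.890, 0.7999 to 1.33 and 0.730 to 1.11, with a log2 fold change of 0.38 (interval -0.14 to 0.89). Ecm2 had 0.244 to 0.328, 0.301 to 0.395 and 0.178 to 0.424, with 0.31 (interval -0.18 to 0.80). In each of these genes the groups overlapped. Asporin, which carries no glycosaminoglycan chain, was the lowest member, with 0.0775, 0.0271 and 0.0300 scaled FPKM in the control mice, 0.0631, 0.116 and 0.328 in the TAA mice and 0.0823, 0.0350 and 0.0699 in the recovery mice. These correspond to an estimated 1.93 to 4.04, 7.77 to 41.0 and 2.99 to 6.05 fragments, and the highest value was again in TAA 3. At this depth the log2 fold change of Aspn, 0.79, had an interval of -0.13 to 1.70. As deposited, Aspn was at most 0.064 FPKM in the control and 0.074 in the recovery mice. It passed the filter, a mean of 0.1 FPKM, only through the TAA group, so its change is not independent of the filter. Without TAA 3 it did not pass, and no change was fitted. TAA 3 had the highest level of all libraries in 7 of 10 members, namely Dcn, Bgn, Prelp, Fmod, Ogn, Podn and Aspn, and the part of its other tissue in these values was not tested. The Podn locus overlaps that of Scp2, a sterol carrier protein gene on the same strand, with no shared exonic bases. Scp2 had 1559 to 1708 scaled FPKM in the control mice, 347.4 to 446.7 in the TAA mice and 1228 to 1567 in the recovery mice, and the part of its RNA in the Podn values was not tested.

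**Figure D2:**
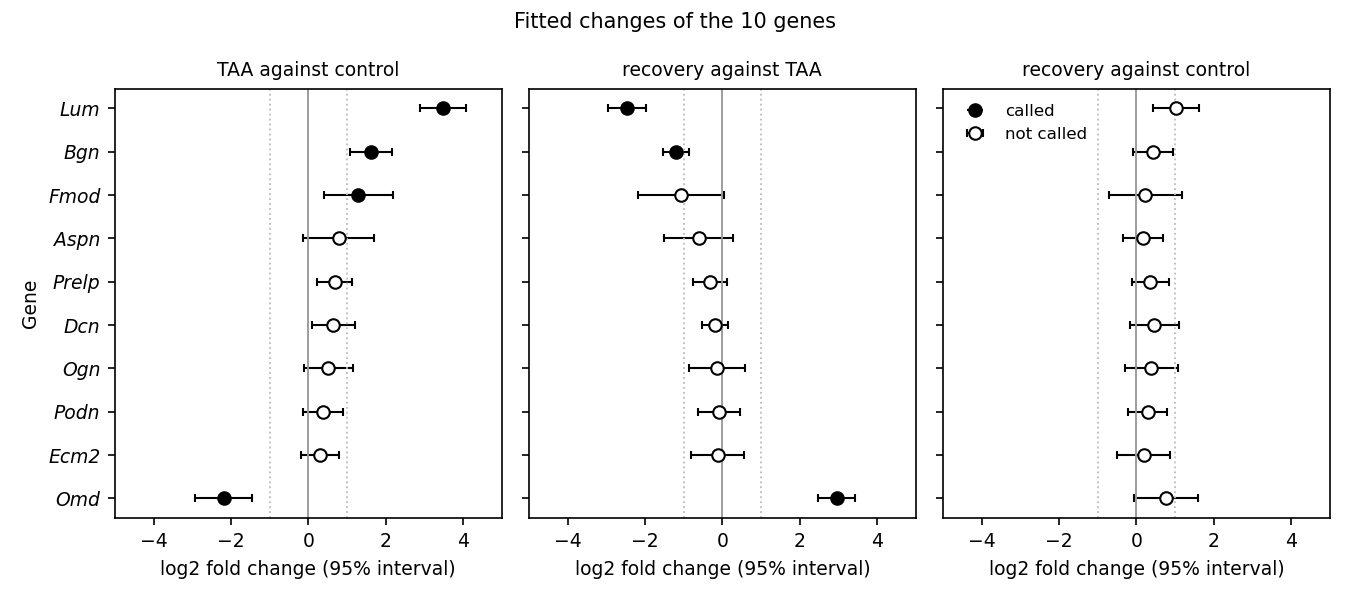
Log2 fold changes with 95% intervals for the 10 genes in the 3 comparisons. Filled points passed an adjusted p of 0.05 and 2-fold (dotted lines): 4 for TAA against control, 3 for recovery against TAA and 0 for recovery against control.

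After recovery, Lum and Bgn were lower than under TAA and Omd was higher by the same criteria. These were 2 of 10 members lower, where 14.3% of all tested genes were, and 1 of 10 higher, where 7.12% were. The same members were those whose mice did not overlap, 2 lower and 1 higher, where 31% and 29.4% of all tested genes were. The 2 comparisons share the TAA mice, so a rise in the first and a fall in the second are not independent of each other. The median log2 fold change of the members was -0.26, beside -0.01 over all tested genes. Dcn, Prelp, Ogn, Podn and Ecm2 differed by -0.33 to -0.09, and the recovery means of these genes were 79.7% to 93.9% of the TAA means.

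Between recovered and control mice, limma called 0 of 10 members, where 0.993% of all tested genes were called in either direction. The unadjusted p of limma was under 0.05 for 1 member, Lum, and the other fits also called 0 members, with 1 exception given below. All 10 fitted differences were positive, from 0.17 for Aspn to 1.02 for Lum, as were 7314 of the 14094 tested genes, and all 10 share the same 6 mice. Lum and Bgn were higher in every recovery mouse than in every control mouse, 2 of 10 members where 14.6% of all tested genes were. For Lum the difference was 1.02, with an interval of 0.43 to 1.62 and an adjusted p of 0.0814 (limma), and with all 9 libraries in 1 fit the adjusted p was 0.0447, so the call depended on the samples fitted. For Bgn it was 0.43 with an interval of -0.08 to 0.94. For Omd, which was 1.82 to 2.96 against 0.826 to 2.13 scaled FPKM, it was 0.77 with an interval of -0.05 to 1.59.

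The scaling between libraries decided how many members were called in the TAA group. With FPKM left as deposited, 8 members were called, 7 of them higher, and these included Dcn (1.29), Prelp (1.32), Ogn (1.10) and Aspn (1.10), all of them log2 fold changes. Under quantile normalization Dcn was called (1.36) and Fmod was not (0.60), and the values of Ogn, Aspn, Podn and Ecm2 turned negative, from -0.62 to -0.12. Lum, Bgn and Omd were called under all 4 scalings.

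**Figure D3:**
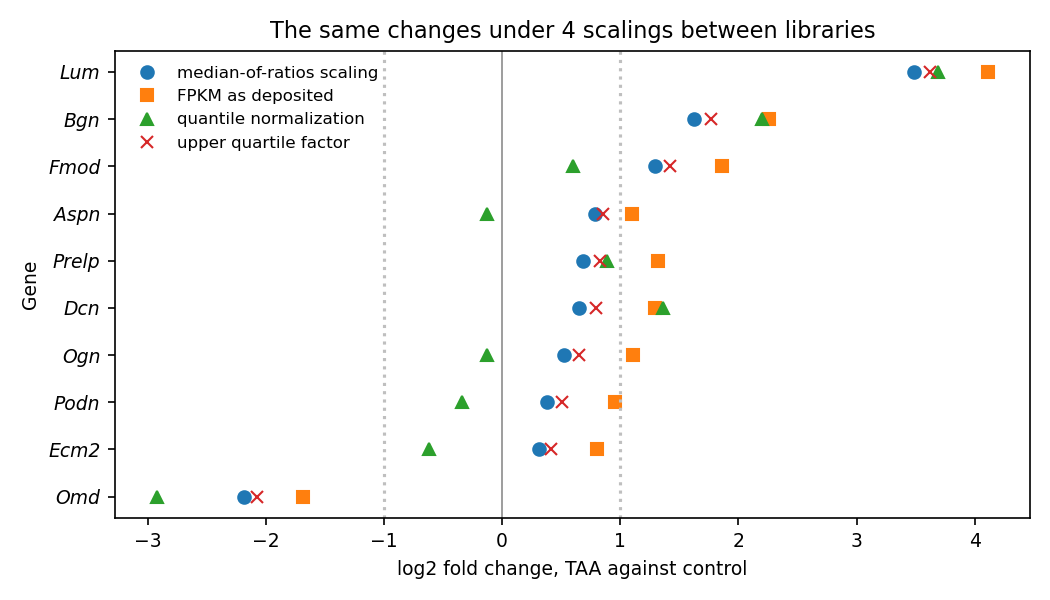
Log2 fold changes of the 10 genes, TAA against control, under 4 scalings between libraries. FPKM as deposited lie to the right of the median-of-ratios values for all genes, and quantile normalization puts Ogn, Aspn, Podn and Ecm2 below 0.

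The share of each member in the summed FPKM of the 10 genes does not depend on that scaling. Dcn held 59.2%, 63.0% and 63.3% in the control mice, 43.2%, 47.2% and 43.0% in the TAA mice and 59.9%, 62.8% and 62.0% in the recovery mice. Bgn held 23.4% ± 0.84 (SD, n = 3), 33.1% ± 1.81 and 22.9% ± 2.51. Lum held 2.69% ± 0.21, 14.3% ± 2.35 and 4.02% ± 0.32, so that it passed Prelp in the TAA group. The TAA mice did not overlap either other group for Dcn, Bgn, Lum, Prelp, Omd and Podn.

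In exact permutation tests over the 9 libraries with adjustment over the 10 shares, Lum was the 1 member that passed (adjusted p = 0.0357, two-sided). Its unadjusted p of 0.00357 is the smallest that 3 groups of 3 allow. The adjusted p was 0.0571 for Dcn, Bgn, Prelp and Omd by the same exact permutation test. Dcn and Omd also passed without control 1 and Bgn without recovery 1 (adjusted p = 0.0357 each, exact permutation). The share of Omd was 1.38% ± 0.59 (SD, n = 3) in the control, 0.0953% ± 0.016 in the TAA and 1.63% ± 0.21 in the recovery mice.

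**Figure D4:**
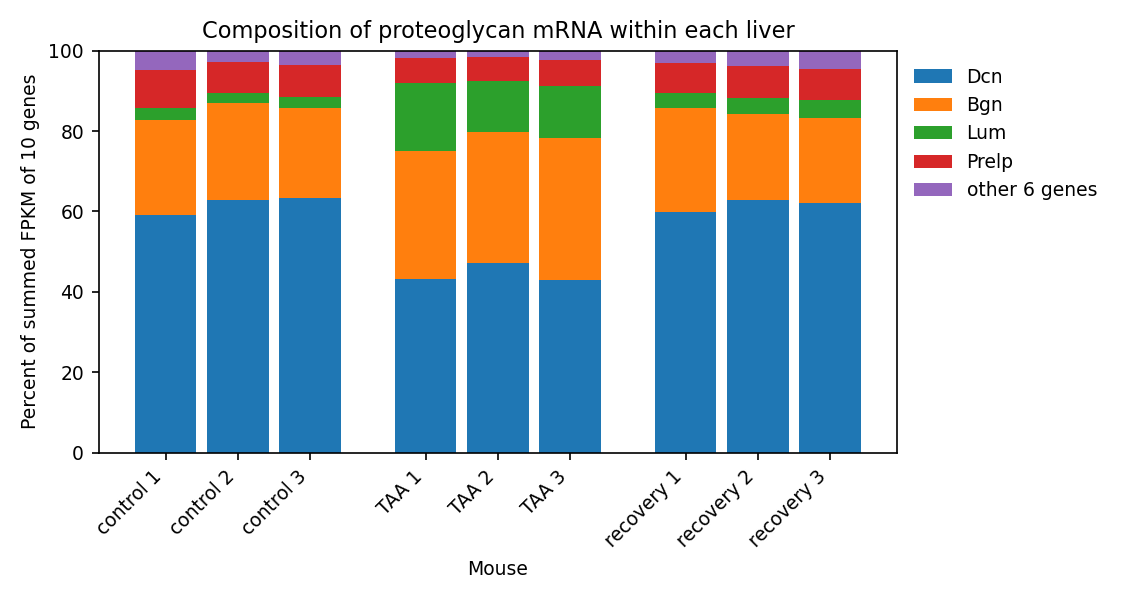
Percent of the summed FPKM of the 10 genes within each of the 9 livers, as stacked bars. Dcn takes 43.0% to 47.2% in the TAA mice and 59.2% to 63.3% in the other mice, and Lum takes 12.8% to 17.0% and 2.44% to 4.38%.

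Comparing levels between genes rests on the gene length behind the FPKM. The exons of Dcn add up to 5838 bases and those of Bgn to 6099 bases, whereas their longest coding transcripts have 1758 and 2419 bases. With FPKM rescaled to the longest coding transcript, the share of Dcn was 73.4% in the control, 58.1% in the TAA and 73.5% in the recovery group, and that of Lum 0.962%, 5.65% and 1.45%. On the deposited lengths, Dcn was above Bgn in all 9 mice. By group mean Lum ranked number 4 in the control and recovery groups and number 3 in the TAA group, and Omd ranked number 5 and, in the TAA group, number 9. Neighbours in this order overlapped in range from Lum through Omd and Ogn to Podn in the control group. Among TAA mice the same held for Dcn and Bgn, for Fmod, Ogn and Podn, and for Omd and Aspn, and in the recovery group for Ogn, Podn, Fmod and Ecm2.

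Within a liver, 8 of the 9 ratios tested differed between the groups (exact permutation test, adjusted p of 0.0321 to 0.0442). Bgn to Dcn was 0.379 ± 0.022 (SD, n = 3) in control, 0.747 ± 0.067 in TAA and 0.373 ± 0.050 in recovery mice. Lum to Dcn was 0.0435 ± 0.0045, 0.323 ± 0.063 and 0.0653 ± 0.0050, and all recovery mice lay above all control mice. Fmod to Lum was 0.164 ± 0.028, 0.0424 ± 0.023 and 0.0994 ± 0.039, and this ratio lost its call when any of 7 mice was left out. The ratio of Ogn to Dcn, 0.0130 ± 0.0020, 0.0124 ± 0.0028 and 0.0128 ± 0.0031, was the exception (exact permutation, adjusted p = 0.943). Pairwise exact permutation tests of 3 mice against 3 cannot give a p under 0.1.

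Summed over the listed genes, collagens that SLRPs bind rose relative to the SLRPs, but single genes did not all follow this. Of 10 such collagen genes, 10 were called higher in the TAA group (median log2 fold change 3.21), where 17% of all tested genes were. From TAA to recovery 9 were called lower (median -2.65), where 14.3% of all tested genes were. Among these collagens Col1a1 and Col3a1 had the largest changes, 5.91 and 4.95, and then -4.92 and -4.61. There were 66.5 ± 22.9 Dcn FPKM per Col1a1 FPKM in control mice, 1.53 ± 0.25 in TAA mice and 44.7 ± 17.5 in recovery mice. Dcn to Col3a1 was 23.9 ± 13.1, 1.05 ± 0.075 and 23.1 ± 3.34, and Bgn to Col1a1 was 24.9 ± 7.46, 1.14 ± 0.13 and 17.2 ± 8.85. For Lum, the ratio to Col1a1 was lower in every TAA mouse (0.486 ± 0.046) than in any control (2.85 ± 0.91) or recovery mouse (2.88 ± 1.06). Lum itself rose by 3.49 on the log2 scale, less than Col1a1, Col1a2, Col3a1, Col5a2 and Col6a3. It rose more than Col5a1 (2.68), Col6a2 (2.23), Col6a1 (1.83), Col12a1 (1.23) and Col14a1 (1.03). Bgn (1.63) rose more than Col12a1 and Col14a1 and less than the other listed collagens.

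The summed FPKM of the 10 SLRPs was 3.23, 4.17 and 5.07 times that of the 10 collagens in the control mice, 0.690, 0.797 and 0.773 times in the TAA mice and 4.35, 4.32 and 4.03 times in the recovery mice. The ratio was thus lower in every TAA liver than in all others. Its size depends on the gene lengths by which FPKM are divided: with the longest coding transcript of each gene as its length, an alternative chosen after seeing the data, it was 6.52 to 11.0 in the control mice, 1.09 to 1.33 in the TAA mice and 7.97 to 9.08 in the recovery mice. The adjusted p was 0.0429 for this ratio and 0.0321 for Dcn to Col1a1 (exact permutation over 9 libraries). The recovery and control mice overlapped in each of these ratios.

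**Figure D5:**
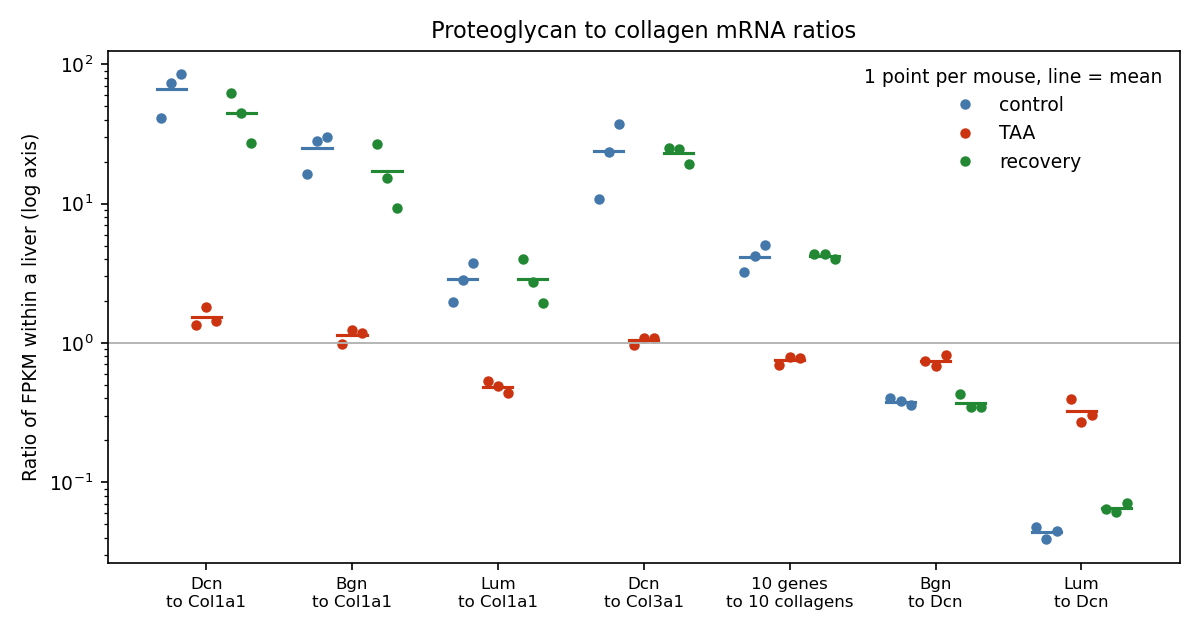
Ratios of FPKM within each liver (log axis), 1 point per mouse with the group mean as a line. The 5 ratios to collagens are lower in all TAA mice than in all other mice, and Bgn to Dcn and Lum to Dcn are higher.

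Markers of several cell types were checked, those of cells that make SLRPs among them. Of 12 stellate cell markers, 7 were called higher and 1 lower (Ecm1) in the TAA group, where 17% and 8.02% of all tested genes were. The summed scaled FPKM of these markers was 75.9 to 117.5 in the control, 142.9 to 156.0 in the TAA and 93.6 to 106.3 in the recovery mice. Reln and Ecm1 had the highest mean levels of the list over all libraries, and they moved in opposite directions. Reln had 19.7 to 27.6, 37.9 to 48.3 and 19.4 to 22.6, a difference of 0.80 on the log2 scale in the TAA group (adjusted p = 0.00307, limma), under 2-fold. Ecm1 had 19.2 to 38.2, 10.8 to 15.1 and 25.3 to 34.3, and it fell by 1.03 under TAA (adjusted p = 0.0107, limma) before it rose by 1.28 (adjusted p = 0.000436). Of 11 tested portal fibroblast and capsule markers, 10 were called higher, with sums of 5.95 to 6.42, 33.7 to 54.7 and 7.62 to 12.4. Eln, the elastin gene, had 0.390 to 0.639 in the control and 6.78 to 13.9 in the TAA mice. Of 7 tested cholangiocyte markers, 7 were called higher, with sums of 15.8 to 21.5, 307.1 to 453.2 and 29.0 to 39.5, most of it Spp1. Epcam, an epithelial adhesion molecule, was the 1 gene of that list also called between recovered and control mice. It had 0.249, 0.377 and 0.499 scaled FPKM in the control mice, 10.3, 7.65 and 7.78 in the TAA mice and 1.10, 1.52 and 1.48 in the recovery mice. The log2 fold change from control to recovery was 1.65 (SE 0.25, adjusted p = 0.0310, limma), and these groups did not overlap. Of 6 tested mesothelial markers 2 were called higher, Krt8 and Wt1, and the sums, most of them Krt8, were 53.0 to 73.8, 176.5 to 241.4 and 49.4 to 66.2. Krt8 had 51.6 to 72.7 scaled FPKM in the control mice and Wt1 0.0978 to 0.234, so the sums describe Krt8 and not the list. Msln, Upk3b, Upk1b and Lrrn4 were not called, and each was highest in TAA 3. The part of all these cell types in the changes of Lum, Bgn and Fmod was not tested.

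Markers of macrophages, endothelial cells and lymphocytes were checked as well. Of 9 macrophage markers 2 (22.2%) were called higher in the TAA group, where 17% of all tested genes were. The sums of these markers were 76.4 to 120.8 in the control, 113.2 to 119.7 in the TAA and 137.3 to 190.6 in the recovery mice. Of 8 endothelial markers 0 were called by limma in that comparison, although control 1 was again the lowest mouse, with sums of 55.5 to 100.7, 60.9 to 80.7 and 93.5 to 106.2. Of 8 lymphocyte markers 1 (12.5%) was called higher (Cd8a, by 1.03 on the log2 scale, adjusted p = 0.0103, limma), below the 17% of all tested genes. For these markers 8 of 8 differences were positive, as were 7202 of the 14094 tested genes. In 4 of 8 every TAA mouse was above every control mouse, where 32.6% of all tested genes were. The sums were 1.53 to 2.97 in the control, 3.55 to 4.92 in the TAA and 1.12 to 3.59 in the recovery mice. The part of these cells in the members' values was not tested.

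The list of genes for the glycosaminoglycan chains of SLRPs also held Tpst1 and Tpst2, which sulfate protein tyrosines, and Slc26a2, a sulfate transporter. None of these was called in the TAA group. In that group, 8 of the 28 tested genes of the list (28.6%) were called higher and 1 (3.57%) lower. The shares of all tested genes were 17% and 8.02%, and the median of the list was 0.33. Chst11, which sulfates chondroitin, and Dsel, a dermatan sulfate epimerase-like enzyme, rose by 1.88 and 1.36 (adjusted p = 0.000795 and 0.000586, limma). Chpf2, a chondroitin polymerizing factor, fell by 1.14 (adjusted p = 0.000132). Xylt1, which starts the chains, rose by 1.06 (adjusted p = 0.0196; named for its role with its values known). From TAA to recovery 5 (17.9%) were called lower and 1 (3.57%) higher, beside 14.3% and 7.12% of all tested genes, and limma called 0 of 28 against the control group. The call counts of this list moved with the settings, from 0 when tested against 2-fold to 16 with no fold threshold.

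The list of proteases that process or cleave SLRPs also held Pcolce, which is no protease but enhances the procollagen proteinase Bmp1. Of its 13 tested genes, 8 were called higher, Pcolce among them, and 0 lower by limma in the TAA group, which were 61.5% and 0% beside 17% and 8.02% of all tested genes, and the median was 1.77. Mmp7, an epithelial matrilysin, and Mmp12, a macrophage elastase, rose by 7.17 and 4.02 on the log2 scale. Mmp7 had 0.0233 to 0.254 scaled FPKM in the control mice, 22.8 to 31.9 in the TAA mice and 1.24 to 3.33 in the recovery mice. It was also the 1 gene of this list called between recovered and control mice (3.64, SE 0.51, adjusted p = 0.0249, limma), and this call was lost when any of 4 mice was left out and when genes of low level were kept in the test. Bmp1, which cleaves the propeptide of biglycan, differed by -0.95 on the log2 scale, under 2-fold (adjusted p = 9.43e-05, limma; named for its role, outside the rule for named genes).

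Of 26 tested receptors and soluble ligands of SLRPs, 13 (50%) were called higher and 2 (7.69%) lower in the TAA group, with a median of 1.02, beside the same 17% and 8.02%. The growth factors Tgfb3 and Tgfb2 rose by 2.87 and 2.39, and the receptor Egfr and the complement component C4b fell by 1.28 and 1.26. Tlr2, the biglycan receptor, rose by 1.43 (adjusted p = 0.000249, limma), and Tlr4 differed by 0.89 (adjusted p = 0.00198), under 2-fold (both named for their role with their values known). From TAA to recovery 9 (34.6%) were called lower and 1 (3.85%) higher, beside 14.3% and 7.12%, and limma called 0 of 26 against the control group.

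The table lists 8 further genes of the SLRP family. Epyc was listed at 0 in all libraries, and Kera, Optc, Nyx and Podnl1 had at most 0.127 scaled FPKM in any library and were not tested. Tsku, a class IV member that hepatocytes secrete, had 26.0 to 28.2 scaled FPKM in the control mice, 41.6 to 54.5 in the TAA mice and 28.6 to 51.4 in the recovery mice (log2 fold change 0.78 in the TAA group, adjusted p = 0.000916, limma), a change under 2-fold. Chadl, which shares 1023 exonic bases (19.5% of its own) with L3mbtl2 on the opposite strand, differed by -0.02 in the same comparison. Chad had 5.34 to 6.44 in the control, 1.07 to 1.36 in the TAA and 2.90 to 4.87 in the recovery mice, a fall (adjusted p = 2.61e-05, limma) and then a rise of 1.69 on the log2 scale (adjusted p = 0.000446). Its locus overlaps that of Acsf2, an acyl-CoA synthetase gene on the opposite strand with 100.1 to 113.7 scaled FPKM in the control and 35.5 to 37.0 in the TAA mice. Their exons share 0 bases in the annotation used here (GENCODE M21), and the part of Acsf2 RNA in the Chad values was not tested. The deposited loci of Tsku, Chadl and Chad differ from those of that annotation. The exons counted for these genes may thus differ from those compared here.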

How the data were processed

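Total liver RNA of 9 mice was sequenced, and the authors deposited 1 FPKM column per mouse, with no counts used here. The submitters' processing notes name HISAT2 2.2.1, featureCounts 1.5.0-p3 and mm10 (GRCm38). Samples were grouped by the condition in their titles. Each FPKM column was divided by its median-of-ratios factor over the 14005 genes above 0 in all libraries. The test was limma 3.58.1 under R 4.3.3 (lmFit, eBayes with trend) on log2(scaled FPKM + 0.1), which understates the changes of low genes, where the mean FPKM was 0.1 or more, and with Benjamini-Hochberg adjustment over these 14094 genes. Called genes had an adjusted p under 0.05 and a change of at least 2-fold. Each comparison used the 6 mice of its groups. Replicates are separate mice. Shares and ratios were tested with exact permutation of a 3-group F statistic over 1680 assignments. Depth was read from the spacing of low FPKM in single-transcript genes, and the SD over 3 mice is the error given. Loci and exons are from GENCODE M21 (GRCm38).

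The members and lists were chosen with earlier results of these data known. Named genes were the members and the other family genes, and from each list the 2 called genes that rose most and the 2 that fell most under TAA, and any gene called between recovered and control mice. From marker lists these were the summed FPKM and some of the genes of highest mean level. Some genes outside this rule are marked as such. Others, such as the markers Wt1 and Cd8a, were named with their values known. The fit was tested on simulated data in which few genes changed, up and down alike, so the choice of scaling was not tested by it. Alternatives covered the added value, the filter, the scaling, the samples fitted, the moderation, the call rule, the replicate number and each mouse left out. Small RNA libraries were not analysed here. Files were prepared with Python 3.11.15 and pandas 2.3.3.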

Additional observations from a re-analysis of the deposited data

How the results depend on the processing

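Depth limits Aspn and, in the TAA group, Omd, which rest on few fragments, and 3 mice per group limit every p. Fmod was also low in single libraries, with an estimated 25.9 fragments in control 1 and 26.0 in recovery 1. Ecm2 had 30.6 and 31.6 in the same libraries. Over the alternatives, 525 of 556 values of the members' log2 fold changes kept their direction and their side of the threshold, as did 206 of 228 of the shares and ratios. The members called for TAA against control were 4, and 2 with 1 added to each FPKM (Bgn and Lum), 2 when tested against 2-fold (Lum and Omd) and 8 with FPKM as deposited. Without each mouse in turn they were 3 to 4. Over all genes, 2389 higher and 1131 lower calls became 4382 and 421 with FPKM as deposited, where the median of all genes was 0.63 on the log2 scale, 2681 and 916 with an upper quartile factor (median 0.15) and 1534 and 1355 with quantile normalization. For recovery against control, 1 member (Lum) was called with all 9 libraries in 1 fit, in place of 0. The shares that passed were 1, and 1 to 3 when each mouse was left out.

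Same-numbered mice did not deviate together more than others. Their correlations were -0.07 to 0.125, of which 1 of 9 exceeded 0.1. Those of other pairs were -0.113 to 0.133, of which 1 of 18 did. No pairing by number was thus seen, but with 3 mice per group these values cannot exclude one. With the replicate number as a block in the fit, the called members were 4, 3 and 0 in the 3 comparisons, as without it. Over all genes the block gave 2383 higher and 1134 lower calls for TAA against control, and 9 higher and 8 lower for recovery against control, in place of 82 and 58. With permutation within the number, 0 shares and 0 ratios passed, where the smallest p that this block allows is 0.0278 before adjustment.

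Signs changed for values that passed no test at the main setting. With quantile normalization the log2 fold change in the TAA group was -0.12 for Ogn, -0.13 for Aspn, -0.34 for Podn and -0.62 for Ecm2 (adjusted p of the last 0.0277, limma). For recovery against TAA it was 0.39 for Ogn, 0.091 for Aspn, 0.51 for Podn and 0.64 for Ecm2, and against the control group -0.038 for Aspn. Leaving out 1 mouse at a time gave -0.38 to 0.12 for Ogn, -0.26 to 0.089 for Podn and -0.28 to 0.19 for Ecm2 for recovery against TAA, and -0.029 to 0.68 for Fmod for recovery against control. The share of Fmod (adjusted p of 0.524 to 1 over the mice left out, exact permutation, with the sign turned without TAA 3) and the ratio of Ogn to Dcn (without control 1 or TAA 2, adjusted p = 0.943 and 0.832, exact permutation) also turned, the latter with adjusted p of 0.639 to 0.943 over the mice left out. The causes were not tested. The rescaling to the longest coding transcript was chosen after seeing the data, and 1 share and 8 of 9 ratios passed under it.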

Other observations

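The genes within 500 kb of a member did not all follow it. Of 11 tested neighbours of the Ecm2, Aspn, Omd and Ogn cluster on chromosome 13, 3 were called higher in the TAA group (Cenpp, Fgd3 and Wnk2, by 1.69, 2.35 and 2.50 on the log2 scale), 0 were called lower by limma, and the median was 0.48. Around Bgn on chromosome X, 3 of 22 tested neighbours were called higher, with a median of 0.33. Around Fmod and Prelp on chromosome 1, 2 of 18 were called higher and 1 lower. Around Podn on chromosome 4, 3 of 13 were called higher and 2 lower, and Gpx7 rose by 2.89. Over all tested genes 17% were called higher and 8.02% lower, and nothing particular to these loci is read from the counts. None of the 3 listed neighbours of Dcn and Lum on chromosome 10 passed the filter on low values.

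Over the 9 libraries, which fall into 3 groups and share their scaling, the genes whose log2 scaled FPKM followed the members most closely on average were Zdhhc1, Adra2b, Tnnt2, Cyp2s1 and Arhgap30 (mean Pearson r of 0.711, 0.693, 0.691, 0.689 and 0.685). For Lum they were Lhfp, Pdgfrb and Igsf3 (r of 0.996, 0.995 and 0.995), for Bgn Dkk3, Ppp1r9b and Col14a1 (0.991 each) and for Dcn Fli1, Itgal and Ptgs1 (0.991, 0.984 and 0.983). Among the members, Lum and Bgn had an r of 0.974 with each other, and Dcn and Prelp of 0.939. Omd was negative with all 9 other members, from -0.11 with Ecm2 to -0.78 with Lum. No test was made of these values.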
